A study of Mus musculus with 18 samples.

Results

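Type I interferon response genes are the genes that cells switch on after interferon-alpha or interferon-beta binds its receptor. A list of 38 mouse genes of this kind was followed across thymus cells of mice given an antibody against DLL4, and 33 of them were found by the gene name printed in the array files, out of 25888 genes on the array. DLL4 is a Notch ligand of thymic epithelium that T-cell progenitors need. C57BL/6 mice had received anti-DLL4 or an isotype control antibody and were killed 2 weeks later. RNA was measured on 18 one-colour Agilent arrays, 1 per sample. Total thymocytes gave 3 anti-DLL4 and 4 isotype control samples. DN cells, sorted as CD4-CD8-, gave 3 anti-DLL4 and 3 isotype control samples. DN1 cells, sorted as CD4-CD8-CD44+CD25-, gave 3 anti-DLL4 and 2 isotype control samples. How the samples relate to the 4 animals that the study describes for each antibody is not given, and p-values therefore measure the spread between samples, which may be partly technical. In such bulk samples, fewer cells of a type and less RNA per cell cannot be told apart.

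As background, type I interferons signal through the receptor chains Ifnar1 and Ifnar2 and the kinases Jak1 and Tyk2 to a complex that holds STAT2 and IRF9. This complex binds the interferon-stimulated response element (ISRE) in the promoters of its target genes. The targets include cytosolic nucleic acid sensors, factors that amplify or damp the signal, and effectors that act on viral RNA, viral budding or intracellular pathogens. In the thymus, epithelial cells and dendritic cells are known to make interferons in the absence of infection, and many interferon response genes are also induced by interferon-gamma.

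The promoters show the element that names this group of genes. RefSeq promoter windows of the GRCm38.p6 assembly, running from 250 bases before to 50 bases after the start site, were at hand for 25 of the 33 genes. The ISRE core was searched on both strands, with overlaps counted, as GAAA, any 2 bases, then GAAA. It was present in 16 of these 25 genes (64%), against 1079 of 27025 genes (3.99%) in the whole table. The longer form with a further 2 bases and GAAA, which holds 2 overlapping cores, was present in 4 of the 25 genes (16%) and in 0.133% of all genes. TTCNNNGAA, the GAS element through which interferon-gamma is known to act, was present in 8 of the 25 genes (32%) and in 9.55% of all genes. The 5 stretches below are those of Isg15, which held the most matches in 1 window (3), and of the 4 genes with 2 matches that differed most in DN cells, and capitals mark the core matches.
Isg15: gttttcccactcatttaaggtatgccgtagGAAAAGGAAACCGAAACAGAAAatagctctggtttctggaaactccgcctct
Oas1a: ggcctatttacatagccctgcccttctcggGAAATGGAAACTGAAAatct
Ifit3: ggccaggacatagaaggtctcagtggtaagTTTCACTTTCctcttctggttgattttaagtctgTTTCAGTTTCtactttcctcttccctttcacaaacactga
Gbp3: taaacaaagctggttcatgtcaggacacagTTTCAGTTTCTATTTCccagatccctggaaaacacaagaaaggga
Ifit1: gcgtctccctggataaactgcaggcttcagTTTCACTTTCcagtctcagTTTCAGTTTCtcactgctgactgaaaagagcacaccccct
Each is written along its gene's own strand with up to 30 bases on either side of the matches, not past the start site. TTTC, any 2 bases, then TTTC is the same core read on the other strand. The stretches lie at chr4:156200845-156200926 on the minus strand (Isg15), chr5:120907526-120907575 on the minus strand (Oas1a), chr19:34583343-34583446 on the plus strand (Ifit3), chr3:142559969-142560043 on the plus strand (Gbp3) and chr19:34640755-34640843 on the plus strand (Ifit1). In Isg15, Oas1a and Gbp3 the cores overlap in 1 run, while Ifit3 and Ifit1 each hold 2 separate cores. The windows of Samhd1, Irf7 and Ifi44 held no core match, which says only that these letters are not in these windows.

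All values below are log2 levels, the log2 signal of a gene's brightest probe minus the 75th percentile of its array. Of the 33 genes, 31 were well above background on all 18 arrays, and Oas3 and Ifi205 were so on 17 arrays, missing on replicate 3 of the control DN cells. The 75th percentile of the signal ran from 260.2 to 4295.4 over the arrays. Replicates 1 and 2 of the control DN cells were the dimmest, at 260.2 and 337.9. For the 33 genes in DN cells, the counts, the medians and Samhd1 are given with and without them. Other single genes, the other gene lists and the cell type markers in DN cells are not given without these 2 arrays. Cd8a, a marker of later thymocytes, lay between 5.56 and 7.84 in total thymocytes, between -1.46 and 3.79 in DN cells and between -1.58 and 4.59 in DN1 cells.

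The middle of the list already separated the antibodies in 2 of the 3 populations. Each gene was centred on its mean over 18 arrays, and the median of the 33 genes was taken relative to the median of all genes on that array. This median was 1.15, 1.41 and 0.49 in anti-DLL4 thymocytes, against -1.19, -0.62, -0.52 and -0.14 in control thymocytes. Anti-DLL4 DN cells gave 0.46, 0.76 and 0.99, against -2.51, -1.99 and -0.51 for control DN cells. The groups did not overlap in either population, and the 2 lowest control DN values were those of the dimmest arrays. In DN1 cells the median was -0.55, 1.25 and 1.19 with anti-DLL4, against 0.75 and 0.49 with control antibody. There the groups overlapped, and replicate 1 of the anti-DLL4 DN1 cells stood apart from the other 2. That array was the dimmest of the DN1 arrays, with a 75th percentile of 977.7 against 1831.7 to 3641.7 on the others.

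**Figure D1:**
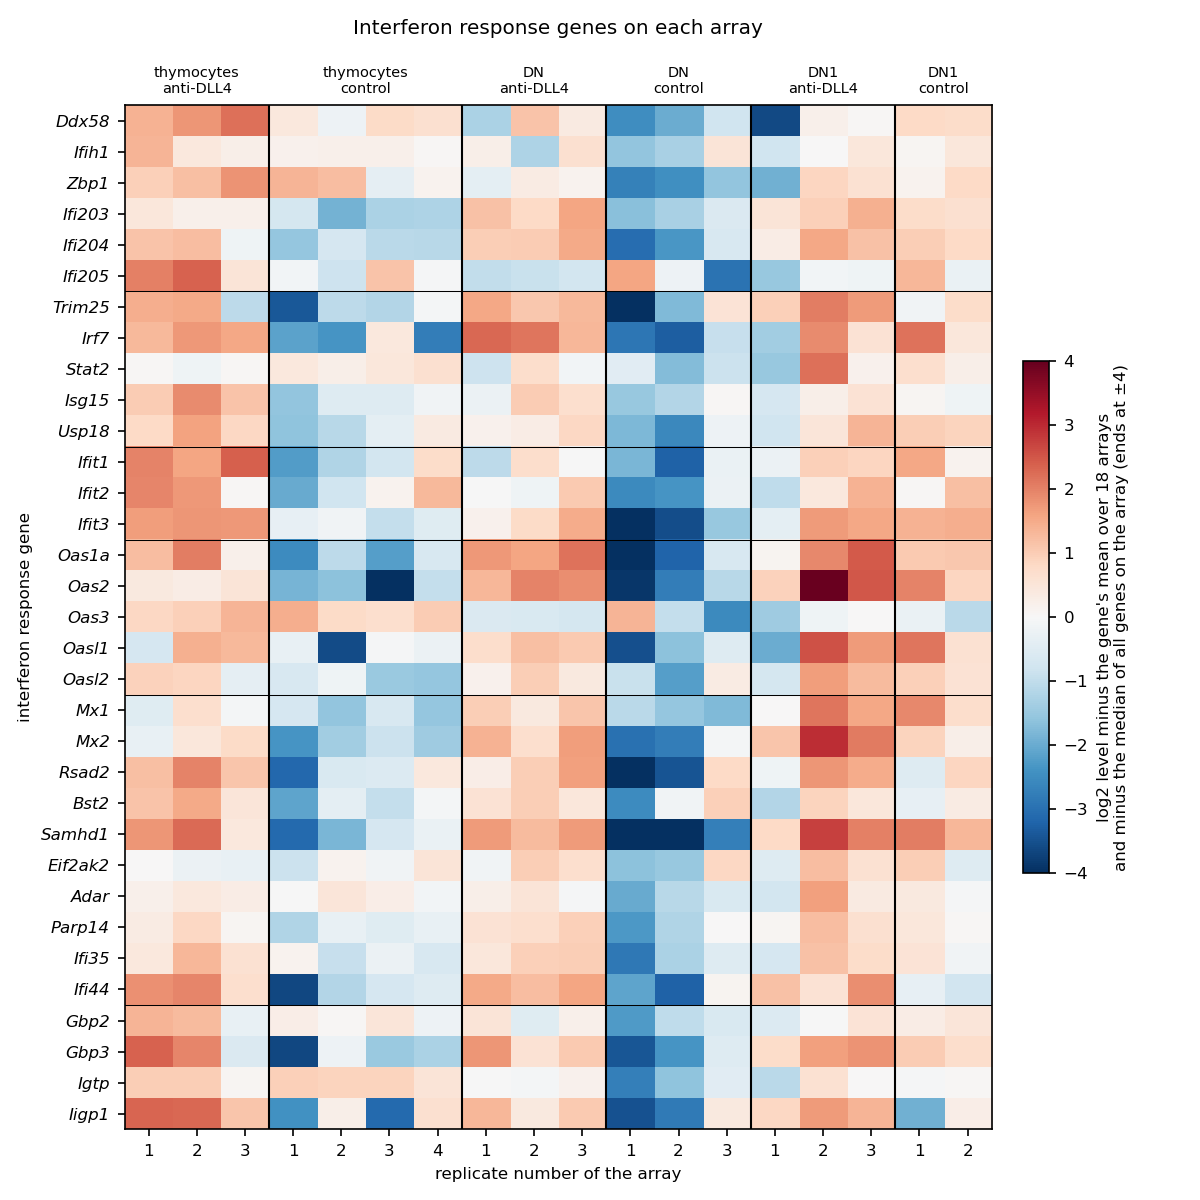
Heat map of 33 interferon response genes (rows, grouped by role with thin lines) on 18 arrays (columns, by group and replicate number). Colour is the log2 level minus the gene's mean over 18 arrays and minus the median of all genes on the array, with colours ending at ±4. Replicates 1 and 2 of the control DN cells are blue in most rows, and replicate 1 of the anti-DLL4 DN1 cells is paler or bluer than replicates 2 and 3.

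**Figure D2:**
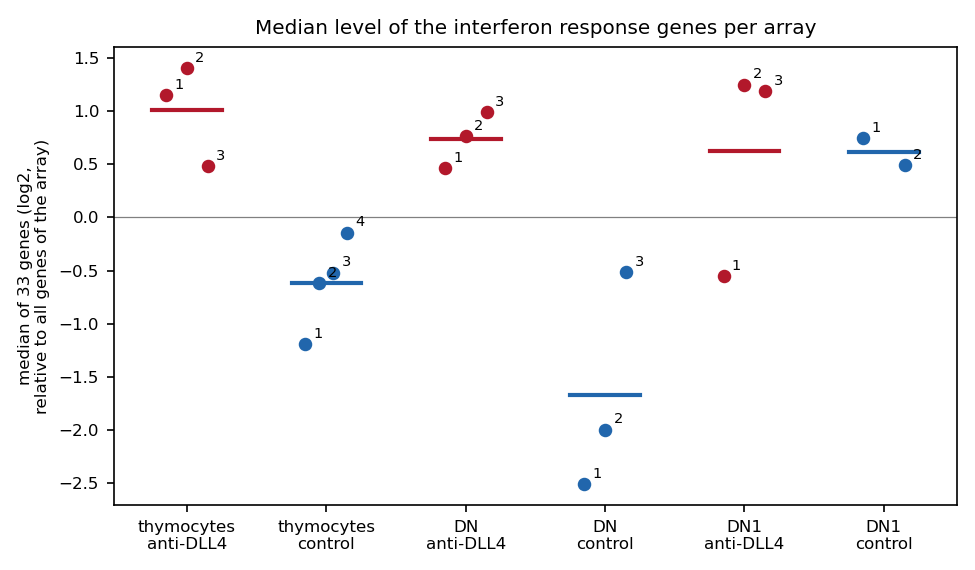
Median of the 33 interferon response genes on each array, in log2 units relative to all genes of the array. Points are arrays with their replicate numbers, short lines are group means, red is anti-DLL4 and blue is isotype control. The anti-DLL4 points lie above every control point in thymocytes (0.49 and above, against -0.14 and below) and in DN cells (0.46 and above, against -0.51 and below), but not in DN1 cells.

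The first comparison asked how blocking DLL4 changed total thymocytes. Most of the interferon response genes lay above the median gene, but 1 passed the test. All differences are anti-DLL4 minus control on the log2 scale, given after taking off the median difference over the tested genes, which was -0.47 in thymocytes. Tests are limma's moderated test with Benjamini-Hochberg adjustment over all tested genes, with a call at an adjusted p under 0.05. In every comparison the test and its p-value belong to the difference before the median of all genes is taken off. This holds also where a relative difference stands beside the p-value. Before that step the median of the 33 genes was 1.33 in thymocytes, 1.52 in DN cells and 0.08 in DN1 cells. Samhd1 alone was called, where 1.14% of 21133 genes were called higher, 0.379% lower and 1.51% in either direction. At an unadjusted p under 0.05 there were 17 of the 33 genes (51.5%), against 15.6% of all genes. The relative difference was above 0 for 31 of the 33 genes, with a median of 1.80. For 14 genes (42.4%) every anti-DLL4 array was above every control array, against 5.04% of all genes. Stat2 had every anti-DLL4 array below the control arrays, as did 9.58% of all genes.

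Samhd1, which hydrolyses the nucleotides that reverse transcription needs, had levels of 2.81, 3.36 and 2.29 in anti-DLL4 thymocytes, against -0.999, 0.02, 0.80 and 1.14 in control thymocytes. The groups were well apart, and Samhd1 was higher by 3.05 ± 0.57 (SE; limma adjusted p = 0.0358). That call was lost when replicate 1 or 2 of the anti-DLL4 group or replicate 1, 2 or 3 of the control group was left out (adjusted p 0.0239 to 0.168 over the 7 such fits).

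Among the signalling genes, Irf7, the transcription factor that amplifies interferon production, differed most in thymocytes. Its level was -1.24, -0.77 and -0.18 with anti-DLL4, against -3.61, -4.11, -1.70 and -4.94 with control antibody. Its groups did not overlap, and the difference missed the threshold (relative 3.33 ± 0.79, limma adjusted p = 0.0829). Isg15, the ubiquitin-like modifier, behaved alike at a smaller size, with levels of 0.69, 1.63 and 1.64 against -0.83, -0.05, -0.42 and -0.09 and a relative difference of 2.14 ± 0.45 (limma adjusted p = 0.0746). Usp18, which removes Isg15 from proteins and damps receptor signalling, had levels of 2.03, 2.87 and 2.86 against 0.68, 0.90, 1.25 and 1.94. All 3 anti-DLL4 values of Usp18 were above all control values, and the difference did not pass (relative 1.87 ± 0.53, limma adjusted p = 0.215). Trim25, a ubiquitin ligase of the RIG-I pathway, overlapped between groups (relative 2.15), and Stat2 lay slightly lower (relative -0.38).

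Members of the IFIT, OAS and GTPase families also lay higher in thymocytes, but none of them passed the test. Ifit1, which binds viral RNA, had levels of -0.22, -0.55 and 1.03 in anti-DLL4 thymocytes, against -3.35, -2.59, -2.50 and -1.09 in control thymocytes. Its relative difference was 2.94 ± 0.70 (limma adjusted p = 0.0911), with Ifit3 at 2.29 and Ifit2 at 1.69. Among the oligoadenylate synthetases, which make the messenger that activates RNase L, Oas1a differed by 2.86 and Oas2 by 2.68, both with groups that did not overlap, while Oas3 stood at 0.16. Of the interferon-inducible GTPases, Iigp1 had levels of 1.53, 1.54 and 1.12 against -2.13, 0.22, -3.48 and 0.22. That gap gave Iigp1 a relative difference of 3.16 ± 0.90 (limma adjusted p = 0.155). Gbp3 reached 3.00 ± 0.72 with overlapping groups (limma adjusted p = 0.0928), against 0.72 for Gbp2 and -0.05 for Igtp.

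Other effectors ranged widely in thymocytes. Ifi44 had levels of 0.57, 0.75 and 0.24 with anti-DLL4, against -3.82, -1.65, -1.52 and -1.41 with control antibody. All its anti-DLL4 values were higher, by a relative 3.09 ± 0.69 (limma adjusted p = 0.0688). Rsad2 (viperin, an antiviral enzyme) differed by 2.50, Bst2 (tetherin, which holds budding virus at the cell surface) by 2.02 and Mx2, a dynamin-like GTPase, by 1.91, all with groups that did not overlap. At the other end, the brightest probes of the RNA-activated kinase Eif2ak2 (0.01) and the RNA-editing enzyme Adar (0.23) lay close to the median gene. A further, dimmer probe of each gene gave 3.00 for Eif2ak2 and 0.85 for Adar. The sensors had relative differences of 0.62 for the RNA helicase Ifih1, 0.82 for Zbp1, 1.48 for the RNA helicase Ddx58 and 1.93 for Ifi204, a member of the HIN DNA-binding family. Ifi204 was the only one of the 6 sensors whose groups did not overlap.

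The same question in DN cells gave 7 calls, all higher with anti-DLL4: Samhd1, Oas1a, Ifit3, Oas2, Irf7, Mx2 and Ifi204. Over all 21056 tested genes, 2.74% were called higher, 1.58% lower and 4.32% in either direction, and the median of all genes was -0.68. At an unadjusted p under 0.05 there were 17 genes (51.5%), against 30.7% of all genes. The relative difference was above 0 for 32 of 33 genes, Ifi205 being the exception, with a median of 2.20. For 18 genes (54.5%) every anti-DLL4 array was above every control array, against 9.66% of all genes. No gene of the list had every anti-DLL4 array below the controls, a pattern of 22.9% of all genes.

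Samhd1 differed most in DN cells. Its level was 3.07, 2.60 and 3.20 with anti-DLL4, against -2.02, -2.59 and -1.03 with control antibody. Control DN cells were thus far below anti-DLL4 DN cells on all 3 arrays, the brighter replicate 3 included, and the relative difference was 5.52 ± 0.61 (SE; limma adjusted p = 0.000428). Without the 2 dim control arrays it was 4.34 (limma adjusted p = 0.0493), which leaves 1 control array, whose spread is taken to be that of the other groups.

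Oas1a and Oas2 were the oligoadenylate synthetases called in DN cells. Oas1a had levels of 2.76, 2.58 and 3.34 with anti-DLL4, against -3.11, -1.33 and 0.75 with control antibody. Oas2 had levels of 2.04, 2.66 and 2.72, against -2.01, -1.18 and -0.05. In both genes the control values fanned out while the anti-DLL4 values lay close together, and the relative differences were 4.80 ± 0.80 for Oas1a (limma adjusted p = 0.00833) and 4.23 ± 0.85 for Oas2 (limma adjusted p = 0.0288). Oasl1, known in mice to restrain Irf7 translation, had levels of 1.86, 2.32 and 2.34 against -1.22, 0.37 and 0.99, which did not overlap but did not pass (relative 2.81, limma adjusted p = 0.193). Oas3 lay at 0.01.

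Ifit3 had levels of 3.54, 4.08 and 4.97 in anti-DLL4 DN cells, against -1.72, 0.68 and 2.20 in control DN cells. Its difference was called (relative 4.49 ± 0.79, limma adjusted p = 0.0133), while Ifit1 (1.59) and Ifit2 (1.93) had overlapping groups. Irf7 stood at 0.06, -0.14 and -0.76 with anti-DLL4, against -3.98, -4.67 and -2.79 with control antibody. All Irf7 values with anti-DLL4 were higher, by a relative 4.22 ± 0.84 (limma adjusted p = 0.0276). Isg15 overlapped in DN cells, with -0.24, 0.97 and 0.82 against -0.38, -0.33 and 0.38 (relative 1.31, limma adjusted p = 0.374). Trim25 did not overlap but missed the threshold (relative 3.00, limma adjusted p = 0.102).

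Mx2 had levels of 2.31, 1.54 and 2.70 in anti-DLL4 DN cells, against -0.95, -1.02 and 1.19 in control DN cells. Replicate 3 of the controls came near the lowest anti-DLL4 array, and the relative difference was 3.12 ± 0.65 (limma adjusted p = 0.0472). Ifi204 had levels of 4.83, 4.79 and 5.48, against 1.91, 2.37 and 3.52, a relative difference of 3.11 ± 0.48 (limma adjusted p = 0.00973). The related Ifi203 had 6.05, 5.62 and 6.58, against 4.34, 4.42 and 4.63. Its groups were also apart, and the difference lay just outside the threshold (relative 2.30 ± 0.47, limma adjusted p = 0.0629). Ifi205 ran from -4.83 to -4.44 with anti-DLL4, inside a control range of -6.46 to -1.13. Gbp3 was the GTPase that differed most in DN cells (relative 3.16, limma adjusted p = 0.0746).

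How many genes were called in DN cells depended on the arrays and on the slide term. With slide as a block 2 genes, Oas1a and Samhd1, were called, where 2.39% of all genes were. Without the 2 dim control arrays 1 gene, Samhd1, was called, 30 of 33 differences were above 0 and the median was 0.89, with 0.737% of all genes called. Leaving out replicate 3 of the anti-DLL4 group gave 2 calls, where 1.71% of all genes were called. Leaving out replicate 3 of the control group gave 16 calls, 15 higher and Ifi205 lower, where 28% of all genes were called. Each of the other 4 fits without 1 array gave 4 calls, where 1.8% to 2.66% of all genes were called. Samhd1 and Oas1a were called in all 6 of these fits and Ifit3 and Ifi204 in 5. Irf7, Oas2 and Mx2 were called in 1 of the 6, the fit without replicate 3 of the control group, with limma adjusted p up to 0.121, 0.125 and 0.192 in the others.

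**Figure D3:**
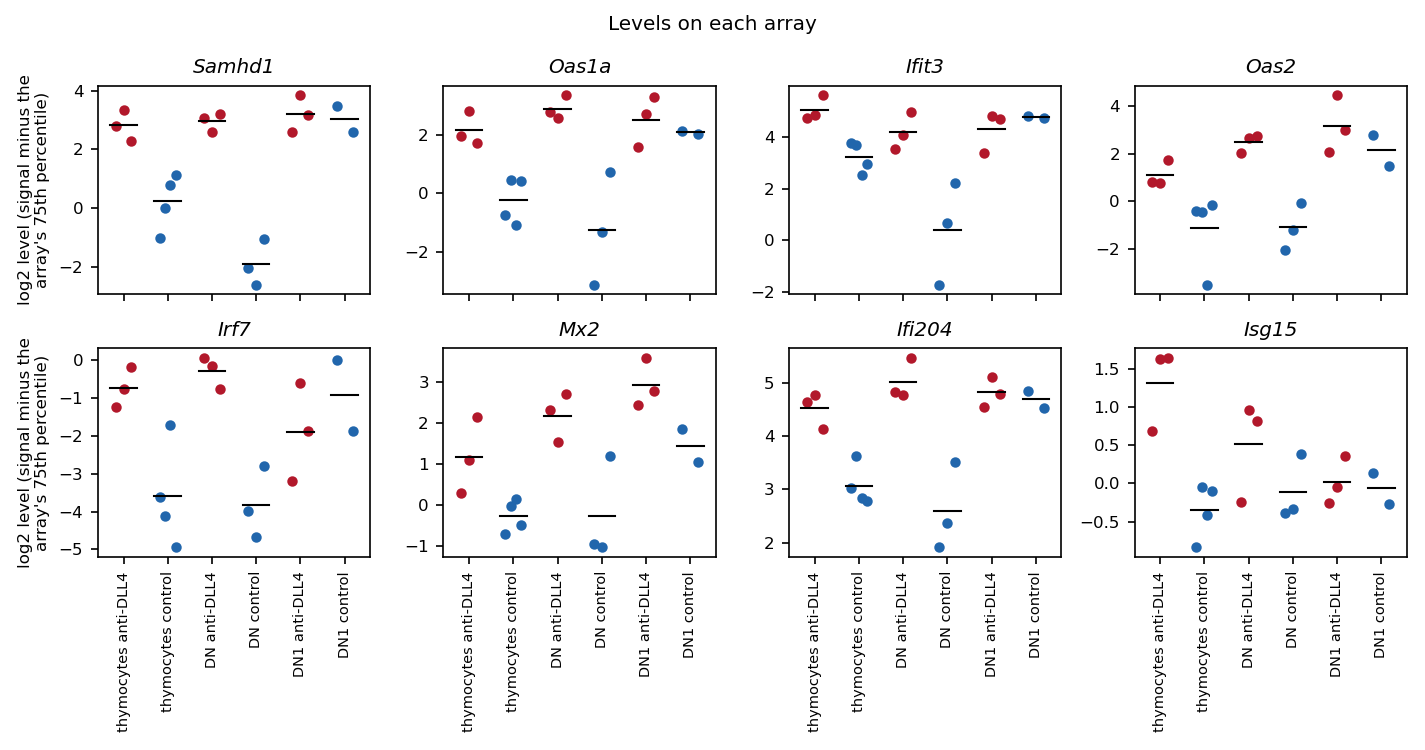
Log2 level on each array for the 7 genes called in DN cells and for Isg15. Points are arrays (red anti-DLL4, blue isotype control), black lines are group means, and each panel has its own vertical scale. Samhd1 lies between 2.60 and 3.20 in anti-DLL4 DN cells and between -2.59 and -1.03 in control DN cells, while both DN1 groups lie at 2.58 and above.

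In DN1 cells none of the 33 genes was called, where 0.0991% of 22194 genes were called in either direction. At an unadjusted p under 0.05 there were 2 genes (6.06%), Ifi44 and Ddx58, against 4.69% of all genes. The relative difference was above 0 for 18 genes and below 0 for 15, with a median of 0.09. Every anti-DLL4 array was above both control arrays for 5 genes, Gbp3, Ifi44, Iigp1, Mx2 and Trim25 (15.2%, against 8.67% of all genes). It was below both for 3 genes, Ddx58, Gbp2 and Ifi205, where 8.86% of all genes did so. Without replicate 1 of the anti-DLL4 DN1 cells, the dimmest DN1 array, the median was 0.67 and 27 of 33 differences were above 0. Without replicate 2 the median was -0.35 and 10 of 33 were above 0.

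In DN1 cells the antibodies overlapped for 6 of the 7 genes called in DN cells, all but Mx2. Samhd1 had 2.58, 3.84 and 3.17 with anti-DLL4, against 3.46 and 2.60 with control antibody. The groups overlapped fully, with a relative difference of 0.17 ± 0.69 (SE). Oas1a (1.57, 2.70 and 3.28, against 2.15 and 2.03), Ifit3 (3.38, 4.80 and 4.69, against 4.81 and 4.73) and Ifi204 (4.56, 5.13 and 4.80, against 4.86 and 4.54) also overlapped. Irf7 spread widely, with -3.18, -0.60 and -1.87 against 0.01 and -1.87, and stood at a relative -0.95 ± 0.94. With 3 and 2 arrays per group, a p that missed the threshold does not show that these levels were alike.

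A few genes differed more in DN1 cells, without passing the test. Iigp1 had 0.78, 0.96 and 0.66 with anti-DLL4, against -2.35 and -0.29 with control antibody, a relative difference of 2.13 ± 1.08 (limma unadjusted p = 0.0665). Ifi44 had 0.65, -0.63 and 0.69, against -1.22 and -1.79 (relative 1.75 ± 0.82, limma unadjusted p = 0.0497). Mx2 had 2.43, 3.58 and 2.78, against 1.86 and 1.04 (relative 1.49 ± 0.73, limma unadjusted p = 0.0601). These 3 lay higher on every anti-DLL4 array, as did Trim25 (relative 1.28). The brightest probe of the sensor Ddx58 went the other way, with -3.05, 0.07 and -0.03 against 1.00 and 0.79 (relative -1.89 ± 0.88, limma unadjusted p = 0.0482). Its lowest value came from the array that stood apart. The other Ddx58 probes did not share 1 direction, with relative differences of -2.18, -0.12, 0.05 and 1.62.

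**Figure D4:**
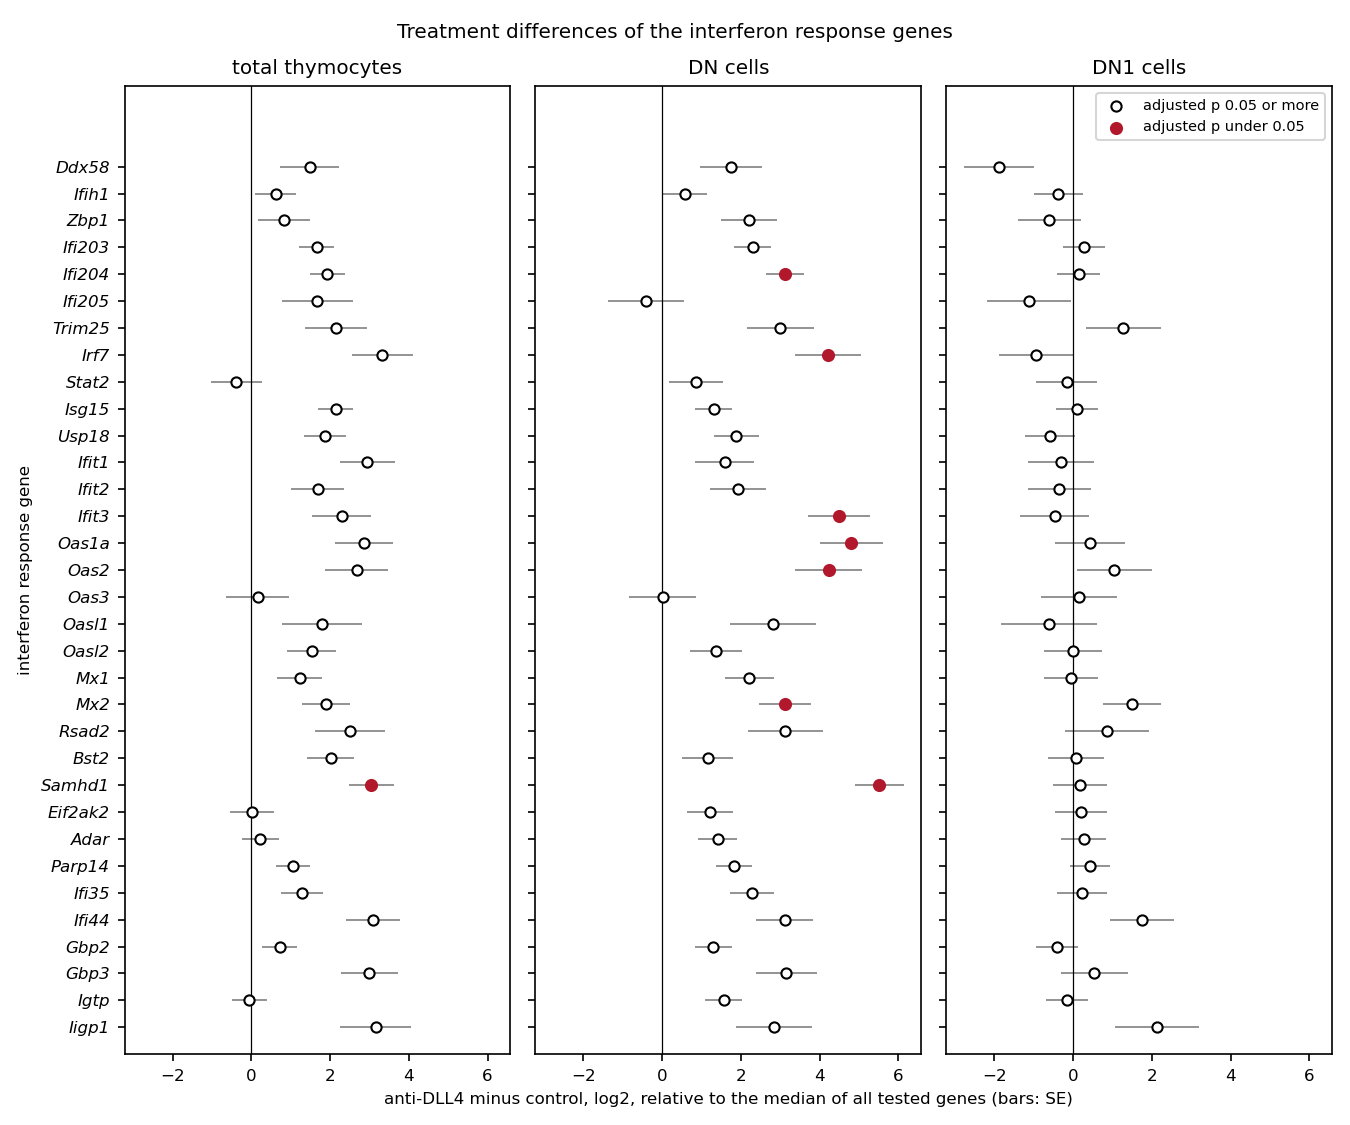
Difference between anti-DLL4 and control samples for 33 interferon response genes in thymocytes, DN cells and DN1 cells. Points are log2 differences after taking off the median over the tested genes, bars are standard errors, and filled red points have an adjusted p under 0.05. The medians of the 33 points are 1.80 in thymocytes, 2.20 in DN cells and 0.09 in DN1 cells.

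Arrays hybridised on the same slide could also be compared. Within slides 1, 2 and 4 the anti-DLL4 thymocyte array was above the control thymocyte array for 29, 31 and 27 of the 33 genes. The medians were 2.31, 2.18 and 1.12 relative to all genes. On slides 1 and 2 the anti-DLL4 array was the brighter (75th percentile 4295 against 524, and 2857 against 686). On slide 4 it was the dimmer (443 against 2169). The part of array brightness in these differences was not tested. The DN pair on slide 3 gave 31 genes and a median of 2.72, with the dimmest control array. The DN1 pairs on slides 3 and 5 gave 26 and 29 genes, with medians of 0.61 and 0.72. Replicate 1 of the anti-DLL4 DN1 cells shared its slide with no control DN1 array.

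Whether the treatment effect itself differed between populations was tested as a difference of effects. None of the 33 genes was called for DN minus thymocytes, DN1 minus thymocytes or DN1 minus DN, and 0.0222%, 0.118% and 0.209% of all genes were called in these 3 tests. At an unadjusted p under 0.05 there were 2, 6 and 6 of the 33 genes (6.06%, 18.2% and 18.2%), against 8.38%, 6.85% and 12.3% of all genes. The median difference of effects was 0.89 for DN minus thymocytes, -1.54 for DN1 minus thymocytes and -1.87 for DN1 minus DN. The effect was smaller in DN1 cells than in thymocytes for 30 genes, and smaller than in DN cells for 32 genes, Oas3 being the exception. The largest gap between DN1 and DN effects was that of Samhd1, at -5.32 ± 0.92 (SE; limma adjusted p = 0.0571), followed by Irf7 at -5.15 and Ifit3 at -4.94. Because the DN effect enters this test, it rests on the dim control arrays, without which the DN1 minus DN median was -1.15 and the DN minus thymocytes median -0.32.

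Populations were also compared within each antibody. In control samples, DN1 cells had the higher level of most of these genes, with 30 of 33 differences from thymocytes above 0 and a median of 1.02. Samhd1 alone was called, where 0.997% of all genes were called higher in control DN1 cells, 0.482% lower and 1.48% in either direction. At an unadjusted p under 0.05 there were 11 genes (33.3%), against 14.3% of all genes. The Samhd1 levels of 3.46 and 2.60 in control DN1 cells stood against -0.999, 0.02, 0.80 and 1.14 in control thymocytes, a relative difference of 3.20 ± 0.65 (SE; limma adjusted p = 0.0452). That call was lost when any 1 control array other than thymocyte replicate 4 was left out (limma adjusted p 0.0338 to 0.496 over the 6 such fits). Oas2 had 2.76 and 1.49 in control DN1 cells, against -0.38, -0.44, -3.48 and -0.17 in control thymocytes. The Oas2 groups were apart, but the difference was not called (relative 3.65 ± 0.90, limma adjusted p = 0.0989). Irf7 (3.07), Oas1a (2.73), Gbp3 (2.56) and Mx1 (2.46) followed, and Oas3 lay furthest the other way (-1.60). Both control DN1 arrays were above all control thymocyte arrays for 12 genes (36.4%), against 9.06% of all genes, and below them for 2 genes, against 22.7%.

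Among anti-DLL4 samples the differences between populations went both ways. DN1 cells against thymocytes gave no call among the 33 genes (0.599% of all genes were called), 15 differences above 0 and a median of -0.42. DN cells against thymocytes gave no call either (0.265% of all genes), 13 differences above 0 and a median of -0.09. For Samhd1 the 9 anti-DLL4 arrays of all 3 populations lay between 2.29 and 3.84. At an unadjusted p under 0.05 there were 5 genes for DN1 against thymocytes, where 10.6% of all genes passed that mark. Ddx58 (-2.96), Ifi205 (-2.27) and Isg15 (-1.36) were lower, and Oas2 (2.02) and Mx2 (1.70) higher. For DN against thymocytes there were 2 genes, Ifi205 (-2.52) and Ifit1 (-2.13), where 7.33% of all genes passed that mark. The lowest Ddx58 value in anti-DLL4 DN1 cells, -3.05, came from the array that stood apart. The next brightest Ddx58 probe was also lower in anti-DLL4 DN1 cells than in anti-DLL4 thymocytes (mean -1.29 against 1.81). The probe after it was not (-0.43 against -0.48).

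Thymocytes and DN cells shared part of the pattern. In 9 genes every anti-DLL4 array was above every control array in both: Ifi204, Ifi44, Ifit3, Irf7, Mx2, Oas1a, Oas2, Samhd1 and Usp18. They are 9 of the 14 genes with this pattern in thymocytes and 9 of the 18 in DN cells, where 2.63% of all genes had it in both. Ifi44 and Mx2 had it in DN1 cells too, as did 0.694% of all genes. These counts use the brightest probes. A dimmer Ifi44 probe went the other way in DN cells (relative -2.80), with an SD of 4.32 between its anti-DLL4 arrays. It was well above background on 5 of the 6 DN arrays, and it lay higher in thymocytes (3.38) and DN1 cells (0.83). By their brightest probes, Stat2, Oas3, Eif2ak2, Adar and Igtp stayed between -0.38 and 0.23 in thymocytes. The sign of Oas3, Eif2ak2, Adar and Igtp there changed with the scaling of the arrays, and a dimmer probe of Eif2ak2 gave 3.00.

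The interferon ligands were not called in any population. Of 16 type I interferon ligands searched for, 11 were on the array and 10 could be tested. Their median relative differences were -0.39 in thymocytes, -0.68 in DN cells and -0.07 in DN1 cells, with 2, 1 and 5 ligands above 0. The value in DN cells leans on the dim control arrays. Centred and set against all genes of the array as above, the mean of the 11 ligands was 1.20 and 0.55 on those arrays. It was -0.19 on replicate 3 of the control DN cells and -0.50, -0.02 and 0.0006 in anti-DLL4 DN cells. Ifna2 had levels of -3.45, -3.47 and -2.28 in anti-DLL4 thymocytes, against -1.55, -2.19, -2.23 and -3.13 in control thymocytes.

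Receptors and signal transducers were called once in 13 genes, for Ifngr2, a chain of the interferon-gamma receptor, in DN cells (relative 2.69, limma adjusted p = 0.0463). There 2.74% of all genes were called higher. Ifnar1 stood at -0.27 in thymocytes, 0.61 in DN cells and -0.45 in DN1 cells, and Ifnar2 at 0.39, 1.18 and -0.91. The medians of these 13 genes were 0.57 in thymocytes, 1.20 in DN cells and -0.40 in DN1 cells.

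Sensors and adaptors that lead to interferon production gave 1 call of 14 in thymocytes and 4 of 14 in DN cells, all higher, and none in DN1 cells. The shares of all genes called higher were 1.14% in thymocytes and 2.74% in DN cells. In thymocytes it was Tlr3, an endosomal receptor for double-stranded RNA. Tlr3 was well above background on every anti-DLL4 thymocyte array (-3.27, -4.28 and -4.40) and on none of the control thymocyte arrays. It was thus at least 7.05-fold higher, setting its anti-DLL4 mean against the lowest signal well above background on each control array. Its limma adjusted p of 0.00184 does not belong to that bound. It comes from the measured control values, and Tlr3 entered the test through its anti-DLL4 arrays alone. In DN cells they were Irf5 (4.80), Tlr7 (4.70), Irf8 (4.44) and Irak4 (3.44), which act in or downstream of endosomal Toll-like receptors or in myeloid and B cells. The medians were 1.07, 2.18 and 0.25 in thymocytes, DN cells and DN1 cells.

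Interferon-gamma (Ifng) was called in thymocytes, at 4.98, 5.04 and 4.64 with anti-DLL4 against 1.13, 0.06, -6.74 and -0.28 with control antibody (relative 6.81 ± 1.29, limma adjusted p = 0.0238). Replicate 3 of the control thymocytes was far below the others. In DN cells Ifng had 3.20, 3.95 and 3.05, against -0.03, 1.32 and 1.44, and was not called. The chemokine gene Cxcl10 was the 1 call of this list in DN cells (limma adjusted p = 0.0474). Its levels were -3.52, -0.16 and -2.07 with anti-DLL4 and -3.57 on replicate 3 of the controls, and it was not well above background on the other two control arrays, so no size is given. Type II interferon and its response genes, 13 in all, had medians of 1.35, 1.43 and -0.19 in thymocytes, DN cells and DN1 cells. Among them 1 was called in thymocytes and 1 in DN cells, where 1.14% and 2.74% of all genes were called higher.

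Further interferon-stimulated genes outside the 38 gave 3 calls of 28 in thymocytes, 10 of 29 in DN cells and 0 of 29 in DN1 cells, all higher. Over all tested genes, 1.14% were called higher in thymocytes and 2.74% in DN cells, the latter with the 2 dim control arrays included. Ms4a4c (3.74), Ly6a (3.01) and Phf11 (2.70) were called in thymocytes. Ifi27 (5.51), Ly6a (4.50), Ms4a4c (4.05), Ifitm3 (3.91), Slfn2 (3.81) and Phf11 (3.76) led in DN cells. The medians were 1.43, 2.37 and 0.20.

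**Figure D5:**
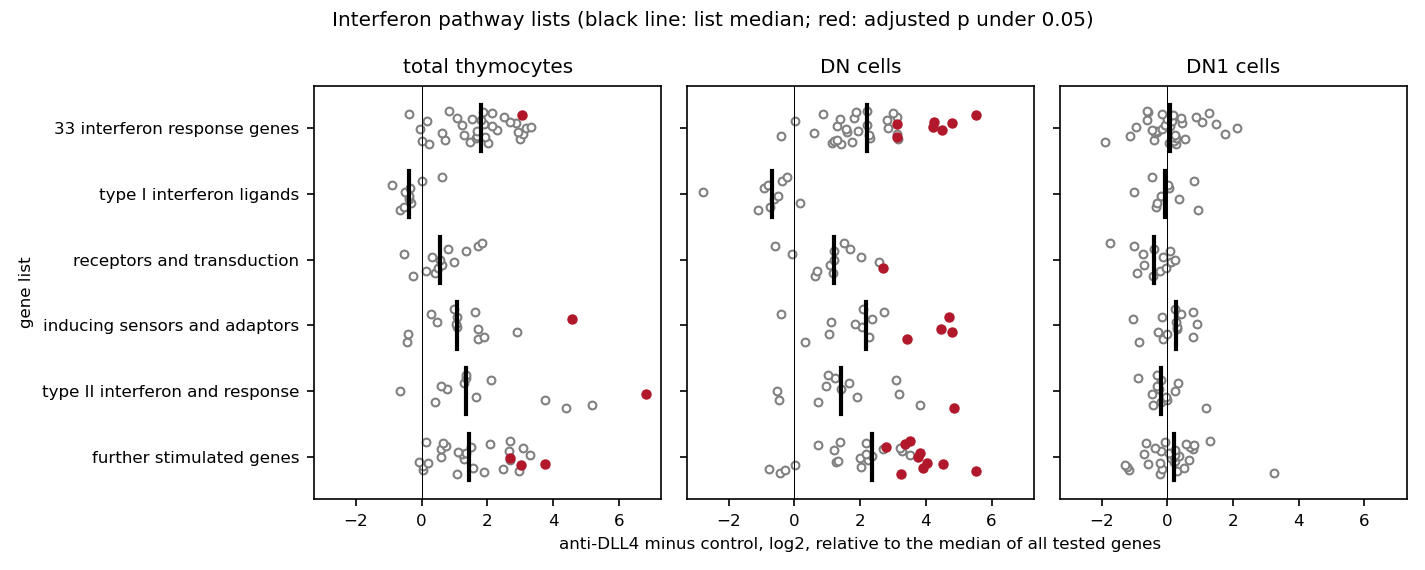
Anti-DLL4 minus control differences of the genes in each interferon pathway list, in log2 units after taking off the median over the tested genes, in thymocytes, DN cells and DN1 cells. Each point is a gene, red points have an adjusted p under 0.05, and black lines are list medians. Tlr3 in thymocytes is drawn at its measured difference although its control arrays were not well above background. The type I interferon ligands have medians of -0.39, -0.68 and -0.07, against 1.80, 2.20 and 0.09 for the 33 response genes.

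Markers of other cell types moved with the antibody in the same populations. All 9 B-cell markers lay higher in thymocytes and in DN cells, with 6 and 8 called and medians of 4.24 and 4.54. For these and the marker counts below, 1.14% of all genes were called higher in thymocytes and 2.74% in DN cells. Among the 6 called in thymocytes, Pax5 was well above background on no control thymocyte array. It entered the test through its anti-DLL4 arrays alone, and its call rests on control values that were not well above background. In DN1 cells 0 of 9 were called and the median was 0.66. The log2 of their summed level ran from 6.21 to 8.07 in anti-DLL4 thymocytes against 4.45 to 5.20 in control thymocytes, from 8.94 to 9.28 in anti-DLL4 DN cells against 5.10 to 5.39 in control DN cells, and from 8.29 to 8.88 in anti-DLL4 DN1 cells against 7.55 to 8.38 in control DN1 cells. B-cell marker levels were thus lower in control thymocytes and control DN cells than in the other 4 groups, and between 6 and 8 of the 9 markers were well above background on the control thymocyte arrays.

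Natural killer and innate lymphoid markers had 4 of 9 called higher in thymocytes and 4 of 9 in DN cells (medians 3.82 and 3.12), and none in DN1 cells (-0.79). Their log2 summed level was 7.30 to 7.84 in anti-DLL4 thymocytes against 3.86 to 5.43 in control thymocytes, 6.25 to 6.48 against 3.17 to 3.96 in DN cells, and 5.07 to 6.64 against 6.48 to 6.52 in DN1 cells. Of 10 plasmacytoid dendritic cell markers, 1 of them Bst2, 2 were called higher in thymocytes, 1 higher and 1 lower in DN cells and none in DN1 cells, with medians of 1.70, 2.00 and -1.47. In DN cells these markers ran from -2.70 to 5.16, so they did not move as 1. Siglech, 1 of them, was well above background on 2 of 3 anti-DLL4 and 0 of 3 control DN arrays, and 2 of those control arrays are the dimmest. Conventional dendritic cell markers had 1, 2 and 0 of 5 called and medians of 1.71, 2.86 and -0.20. Monocyte and macrophage markers had 1, 4 and 0 of 11 called and medians of 1.54, 1.75 and -1.07. T-lineage markers lay lower, with medians of -0.56, -1.14 and -1.99, and 2 of 14 called lower in DN cells, where 1.58% of all genes were. The part of these cell types in the levels of the interferon response genes was not tested.

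Of the 38 genes, 5 had no probe under their current name, and 3 of these were found under an older name through their RefSeq accession. They are not counted above. Dhx58, a helicase related to the RNA sensors, and Irgm1, an interferon-inducible GTPase, rose in DN cells by a relative 2.79 (limma adjusted p = 0.0462) and 2.50 (limma adjusted p = 0.0493). Irgm1 had 3.23, 3.33 and 3.88 in anti-DLL4 thymocytes, against 1.17, 1.70, 1.76 and 2.18 in control thymocytes, apart but not called (limma adjusted p = 0.0678). Irf9, the DNA-binding partner of Stat2, stood at 0.30, 1.60 and -0.26 in thymocytes, DN cells and DN1 cells and was not called. No probe was matched to Xaf1 or Oas1g here, and they were not analysed.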

How the data were processed

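The members and all gene lists were chosen with earlier results of these data known, and 1 probe per gene name, the brightest over 18 arrays, stood for each gene. The deposited scanner values are Cy3 intensity, background-subtracted by the authors with Agilent Feature Extraction 9.5 (per the submitters' processing notes and the file headers), after 2 rounds of RNA amplification per the labels. Deposited flags (other values, 0 or 1 per the file headers) mark spots well above background, saturated spots and outliers. A deposited table holds a ratio for each of 43225 probes. Set against the scanner values it runs in the direction of the intensity, its log2 lies within 0.05 of the probe-centred scanner values for 69.7% to 70.7% of probes, and what the authors divided by elsewhere is unknown. Its column medians were 0.639, 0.68 and 1.012 (anti-DLL4 thymocytes), 1.106, 0.999, 0.864 and 0.866 (control thymocytes), 0.814, 0.741 and 0.889 (anti-DLL4 DN), 1.423, 1.212 and 0.953 (control DN), 0.989, 0.652 and 0.729 (anti-DLL4 DN1), and 0.874 and 0.799 (control DN1).

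Levels are log2 signals from which the 75th percentile of each array's non-control spots was taken off. Control and outlier spots were removed, saturated ones stayed in, and repeated spots of a probe were averaged. The model held 23370 genes well above background on at least 2 arrays, and testing a gene in a comparison required 2 such arrays among its groups. The fit used lmFit and eBayes of limma 3.58.1 (R 4.3.3) on all 6 groups at once. Calls come from unshifted differences. All p-values are two-sided. Any member could be named with its values. Statistics were set for the members called or, under 6 calls, the 6 that differed most, and those printed for other members (Isg15, Usp18, Oasl1, Trim25 and Ifi203 among them) were chosen after their values were seen. From the pathway lists, ligands, receptors and at most 6 called genes were named. Siglech was chosen as a marker of its list, and Pax5 is named because its control signal was low. Some genes are not reported here. Control thymocytes are 3 samples in the design text but 4 in the labels, and all 4 were used. The number of arrays limits the precision: on simulated data, genes changed by 3 log2 units were called in 43%, 35% and 32% of cases in thymocytes, DN cells and DN1 cells, and by 5 units in 81%, 79% and 61%. Alternatives were normexp background, other scalings, filters, probe averaging, slide, replicate number, array weights, own groups only, the ratio table and leaving out arrays.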

Additional observations from a re-analysis of the deposited data

Results flagged for a closer look

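In control thymocytes, the only group with 4 samples, each gene's most extreme array was compared with the next one, and 2 of 33 genes had an array far from the others (past the critical value of Dixon's ratio; chance marks about 1 in 20). Oas2 was -3.48 on replicate 3, where the nearest other control array was -0.44. Ifi44 was -3.82 on replicate 1, where the nearest was -1.65. Both outlying arrays lie on the low side, and no difference of effects between populations met its threshold for any of the 33 genes.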

How the results depend on the processing

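Of 348 recomputed counts and medians, 283 stayed close to the main value, counts within 1.5 times and medians within 0.417. That mark is the SD between replicates of the list's median before the median of all genes is taken off. The medians judged by it are relative to all genes, and the relative median per array had group SDs from 0.18 to 1.04. Of 161 recomputed single-gene tests, 102 kept their call, 59 lost it and none reversed. The cause of the changes was not tested.

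Main counts of called genes were 1 in thymocytes, 7 in DN cells, 0 in DN1 cells, 1 for DN1 cells against thymocytes in controls, and 0 elsewhere. The percentage of all genes called in the same fit stands in brackets. In thymocytes the count was 3 with quantile normalization (1.51%), 7 with the 75th percentile over probes well above background everywhere (2%), 2 with slide as a block (1.23%), 0 with the replicate block (0.393%), 0 with own groups only (0.554%) and 16 with array weights (16.7%). In DN cells it was 2 with slide as a block (2.39%), 3 with the replicate block (1.46%), 1 with own groups only (1.52%), 27 with array weights, 26 of them higher (59%), and 1 without the 2 dim control arrays (0.737%). For DN1 cells against thymocytes in controls it was 0 with normexp (1.23%), without a filter on dim genes (1.04%), with slide (0.0608%), with the replicate block (0%) and with own groups only (0.702%), 3 with quantile normalization (1.64%) and with the percentile over bright probes (1.85%), 2 with probe means (1.42%) and 6 with array weights (4.58%). Differences of effects gave 6 calls with array weights for DN minus thymocytes (16.2%) and for DN1 minus DN (8.42%), and 1 for DN1 minus DN with quantile normalization (0.406%). Among anti-DLL4 samples, array weights gave 1 call for DN1 (3.47%) and 2 for DN cells (8.92%) against thymocytes.

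Medians with normexp were 1.12 in thymocytes, 1.86 for DN minus thymocytes, -0.76 for DN1 minus thymocytes and 0.30 for DN1 against thymocytes in controls. With quantile normalization they were 1.58 in DN cells, 0.39 for DN minus thymocytes and -1.23 for DN1 minus DN. With slide as a block they were -1.99 for DN1 minus thymocytes and 1.51 for DN1 against thymocytes in controls, where probe means gave 1.58. Without the dim arrays they were 0.89 in DN cells, -0.32 for DN minus thymocytes and -1.15 for DN1 minus DN.

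Leaving out each array in turn gave 0 to 2 calls in thymocytes (2 without control replicate 4, 1.98%), 2 to 16 in DN cells (16 without control replicate 3, 28%), 0 to 4 for DN1 minus DN (4 without control DN replicate 3, 3.1%) and 0 to 1 for DN1 against thymocytes in controls. Medians ran from -0.35 to 0.67 in DN1 cells, 0.33 to 1.44 for DN minus thymocytes, -1.99 to -0.997 for DN1 minus thymocytes, -2.49 to -1.50 for DN1 minus DN, 0.67 to 1.57 for DN1 against thymocytes in controls and -0.79 to 0.11 among anti-DLL4 samples. Where 1 control array was left in a group, it was assumed to vary like the other groups.

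Whether replicate numbers pair samples cannot be told from so few arrays. Deviations of same-numbered arrays from their group means correlated at -0.23, 0.06 and -0.13 in thymocytes, at -0.17, 0.003 and -0.04 in DN cells and at 0.33 and 0.01 in DN1 cells. With 2 control DN1 arrays, their deviations mirror each other by construction. In thymocytes, replicates 1, 2 and 3 of anti-DLL4 and control shared slides 1, 2 and 4.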

Other observations

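Of 17 to 19 genes with several probes per comparison, all probes gave 1 sign for 16 of 18 genes in thymocytes (all but Ifit2 and Rsad2), for 12 of 17 in DN cells (all but Ifi203, Ifi44, Ifit2, Mx1 and Rsad2) and for 10 of 19 in DN1 cells. The exceptions in DN1 cells were Adar, Ddx58, Ifi203, Ifi204, Mx1, Oas3, Parp14, Rsad2 and Samhd1. Probes of 1 sign could still differ in size, as those of Eif2ak2 did in thymocytes. Under 4 scalings of the arrays, the sign relative to the median gene changed for Adar, Eif2ak2, Igtp and Oas3 in thymocytes, for Ifih1 and Oas3 in DN cells, and for Ifit1, Igtp, Mx1, Oas3, Oasl2 and Stat2 in DN1 cells.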
